A study of Mus musculus with 6 samples.

Results

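Small nucleolar RNA (snoRNA) genes were examined in mouse bone marrow-derived mast cells 4 h after the start of ionomycin treatment. A gene was taken as a member where a row of the array was annotated with exactly 1 gene symbol and that symbol began with Snord or Snora and a number. Of 30102 genes named by the array, 60 met this rule, 43 of the box C/D class (Snord) and 17 of the box H/ACA class (Snora). The rule used names only and no measured value.

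Total RNA was hybridised to 6 whole-transcript Affymetrix arrays, 3 ionomycin and 3 naive. All cells were grown from the femoral marrow of C57BL/6J mice in IL-3 and stem cell factor and matured for 6 weeks. Ionomycin cells spent 1 h in Tyrode's buffer with 1 µg/mL of ionomycin, a calcium ionophore that raises cytosolic calcium without engaging a receptor, and then 3 h in culture medium. Naive cells went through the same buffer and medium steps without the drug, so both groups share the washes, the hour in buffer and the return to medium. The labels do not say whether the replicates came from separate mice or cultures, so p-values reflect the spread among these 6 arrays alone, and that spread may be technical. In bulk RNA, fewer cells of a type and less RNA per cell cannot be told apart.

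snoRNAs are short nuclear RNAs that guide chemical modification of other RNAs, mostly ribosomal RNA, in the nucleolus. Box C/D snoRNAs direct 2′-O-methylation by the enzyme fibrillarin (Fbl) within a particle that also holds Nop56, Nop58 and Snu13. Box H/ACA snoRNAs direct pseudouridylation by dyskerin (Dkc1) with Nhp2, Nop10 and Gar1. Most mammalian snoRNAs are cut out of introns of host genes, many of which encode ribosomal proteins or other parts of the translation machinery, so that a snoRNA and its host can start from 1 transcript and then follow different fates. A few are transcribed on their own, among them U3, U8 (Snord118) and U13 (Snord13), and act in ribosomal RNA processing or in modification other than methylation.

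All 60 genes were found in RefSeq (assembly GRCm38.p6), where 57 lie inside another gene and 3 do not (Snord118, Snord13 and Snord89). Of the 57, 49 lie in protein-coding genes, 19 of these in ribosomal protein genes, and 8 in long non-coding genes only. RefSeq lengths ran from 28 to 221 nucleotides in the C/D class (median 68) and from 56 to 205 in the H/ACA class (median 119). Host genes of this kind often start transcription in a run of pyrimidines, the 5′ terminal oligopyrimidine motif, which couples translation of the host to growth signals. The promoter windows of 4 enclosing genes are shown because their snoRNAs recur below: Snord37 lies in Eef2, Snord16a in Rpl4, Snord11 and Snord70 in Nop58, and Snora16a in Snhg12. Each window runs from 50 bases before the annotated start to 50 bases from it, on the strand of the gene, in RefSeq's GRCm38.p6 sequence. Capitals mark runs of at least 8 consecutive C or T that lie at least partly within 15 bases of the start.
Eef2, chr10:81176581-81176680, plus strand: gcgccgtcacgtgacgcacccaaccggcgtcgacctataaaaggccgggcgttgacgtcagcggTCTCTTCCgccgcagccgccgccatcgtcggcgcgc
Rpl4, chr9:64173337-64173436, plus strand: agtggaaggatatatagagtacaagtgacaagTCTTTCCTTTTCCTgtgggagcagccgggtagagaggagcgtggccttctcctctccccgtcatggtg
Nop58, chr1:59684956-59685055, plus strand: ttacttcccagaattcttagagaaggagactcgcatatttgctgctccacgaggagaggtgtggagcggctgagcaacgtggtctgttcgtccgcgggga
Snhg12, chr4:132308628-132308727, plus strand: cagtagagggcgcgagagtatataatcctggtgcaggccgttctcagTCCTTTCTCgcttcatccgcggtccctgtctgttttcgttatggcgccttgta
Such a run was found in 11 of the 46 enclosing genes with a promoter entry (23.9%), against 20.0% of the 27025 genes with one. The search read the gene's strand only, and a run of letters is a description and not a shown start site.

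Signals are the deposited log2 values, so a difference of 1 is a doubling. As a background level, the 95th percentile of the mean signals of 1755 olfactory, vomeronasal and taste receptor genes was used, a log2 signal of 6.02. All 11 mast cell markers examined (Kit, Fcer1a, Cpa3 and others) lay above background, at mean signals of 10.16 to 14.24. Some markers of other cells also lay above background: 3 of 4 basophil markers, the brightest (Cd200r3) at 11.17, and 5 of 5 macrophage markers, at 7.01 to 8.06. So did 4 of 5 neutrophil, 3 of 4 T cell and 2 of 3 measured B cell markers. The same held for 2 of 3 measured fibroblast markers, the brightest at 7.95, 2 of 3 eosinophil markers and the 1 measured erythroid marker. Of the 60 snoRNA genes, 36 of 43 in the C/D class and 14 of 17 in the H/ACA class had a mean above background. The same level was passed by 63.2% of all genes and by 38.4% of 893 other genes that RefSeq types as snoRNA. Mean signals ran from 3.71 to 11.82 in the C/D class (median 8.38) and from 5.49 to 9.83 in the H/ACA class (median 7.91). Signals of different genes come from different probes, so an order of signals between genes is not an order of RNA amounts. A row read by probes within a short RNA cannot separate the mature snoRNA from the unspliced host transcript, and the silica column kit named in the labels retains long RNA better than RNA of snoRNA length. Its part in these signals was not tested.

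The arrays of replicate 1 stood apart for snoRNA genes in both groups. The median C/D signal was 9.37, 8.44 and 7.83 on ionomycin arrays 1, 2 and 3, and 9.0, 7.94 and 8.41 on naive arrays 1, 2 and 3. The median H/ACA signal was 8.39, 7.84 and 7.44 on the ionomycin arrays, and 8.21, 7.35 and 7.49 on the naive arrays. Replicate 1 was thus highest in each class and in each group, whereas the median of all genes stayed between 6.80 and 6.84 on ionomycin arrays and between 6.68 and 6.76 on naive arrays. Markers of another cell type moved with these arrays. The basophil protease gene Mcpt8 had 10.60, 9.14 and 9.11 on ionomycin arrays against 10.36, 9.20 and 9.03 on naive arrays, and Prss34, also a basophil protease gene, had 10.70, 8.85 and 8.60 against 10.35, 8.94 and 8.70. Both were highest on replicate 1 in each group, whereas the other 2 basophil markers had offsets near 0 (0.06 for Cd200r3 and -0.01 for Itga2, array 1 minus the mean of arrays 2 and 3). The summed signal of the 4 basophil markers ran from 11.6 to 12.4 (log2) on ionomycin arrays and from 11.7 to 12.4 on naive arrays. Their part in the snoRNA signals was not tested.

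**Figure D1:**
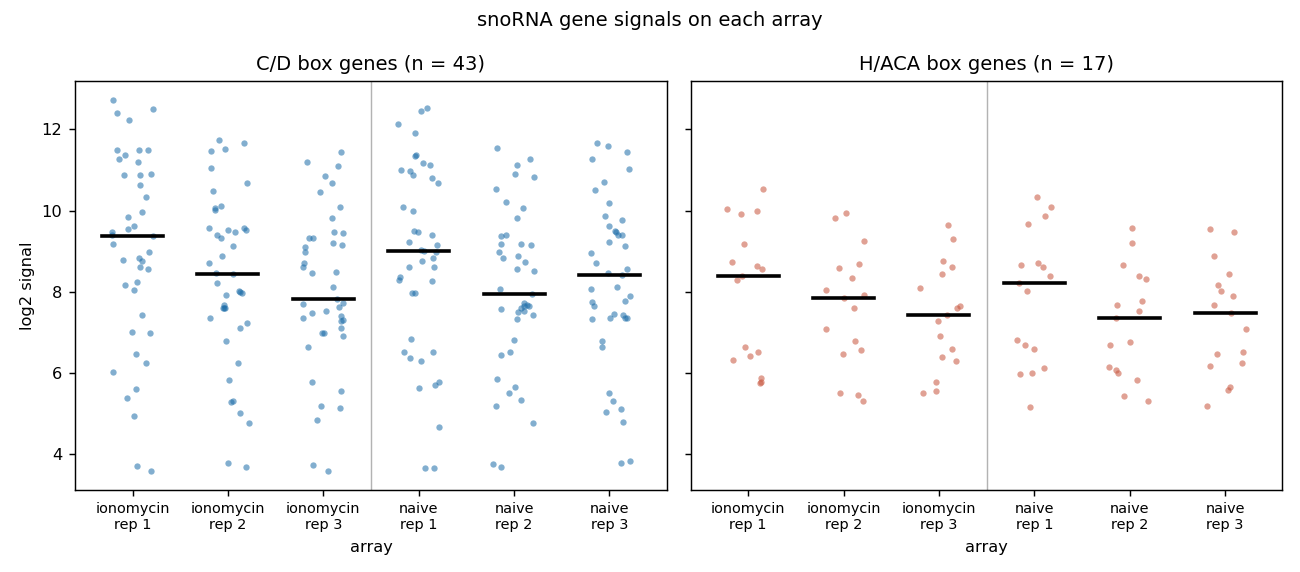
Log2 signal (vertical axis) of each snoRNA gene on each array (horizontal axis), ionomycin arrays left and naive arrays right, for the C/D class and the H/ACA class. The median C/D signal is 9.37 on ionomycin array 1 and 9.0 on naive array 1, above the other arrays of its group in both cases.

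No snoRNA gene passed the test between ionomycin and naive cells. In limma, with Benjamini-Hochberg adjustment over all 30102 genes and a threshold of 0.05, 0 of 43 C/D and 0 of 17 H/ACA genes were called in either direction, where 0.289% of all genes were called higher and 0.0598% lower. With the replicate number as a block the counts were again 0 in both classes, against 0.395% of all genes higher and 0.11% lower. Before adjustment (p under 0.05), limma gave 2 C/D genes higher and 0 lower, and 1 H/ACA gene higher and 0 lower, where 10.2% of all genes were higher and 5.44% lower. With the block it gave 2 higher and 1 lower in the C/D class, and 3 higher and 1 lower in the H/ACA class, where 16% of all genes were higher and 9.41% lower. The smallest adjusted p was 0.113 in the C/D class (0.0998 with the block) and 0.211 in the H/ACA class (0.128 with the block).

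The precision of these comparisons differed widely between members. Standard errors of the log2 difference ran from 0.07 to 0.86 in the C/D class and from 0.11 to 0.89 in the H/ACA class. With the block they ran from 0.06 to 0.39 and from 0.06 to 0.29 in the same classes. The 95% interval of the difference lay wholly within a 2-fold change either way for 20 of 43 C/D and 12 of 17 H/ACA genes, and with the block for 41 and 16. For the other members the interval still reached a 2-fold change, so a missed threshold does not show equal levels.

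The mean difference was above 0 for most members, but in the C/D class pair 3 ran the other way. Pairs are arrays of the same replicate number, and the values do not show that arrays 2 and 3 pair by number. The median difference (ionomycin minus naive) was 0.09 in the C/D class and 0.22 in the H/ACA class, against 0.05 over all genes, and it was above 0 for 31 of 43 C/D and 14 of 17 H/ACA genes, against 64.6% of all genes. Within pairs 1, 2 and 3 the C/D median was 0.23, 0.24 and -0.21, with 33, 32 and 12 of 43 genes above 0. The H/ACA median was 0.05, 0.41 and 0.00, with 10, 14 and 9 of 17 genes above 0, while the all-gene median was 0.08, 0.05 and 0.03. In all 3 pairs, 5 C/D and 5 H/ACA genes had a higher signal after ionomycin, against 35.8% of all genes. In all 3 pairs 1 C/D and 2 H/ACA genes had a lower one, against 16.8% of all genes. Without both replicate 1 arrays the median was 0.02 in the C/D class and 0.24 in the H/ACA class. Leaving out 1 replicate 1 array alone unbalances the groups, and it gave a C/D median of -0.19 without ionomycin replicate 1 and 0.35 without naive replicate 1. Ionomycin arrays lay wholly above naive arrays for 2 C/D genes and 1 H/ACA gene, against 18.9% of all genes, and wholly below for 0 members, against 7.31% of all genes.

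**Figure D2:**
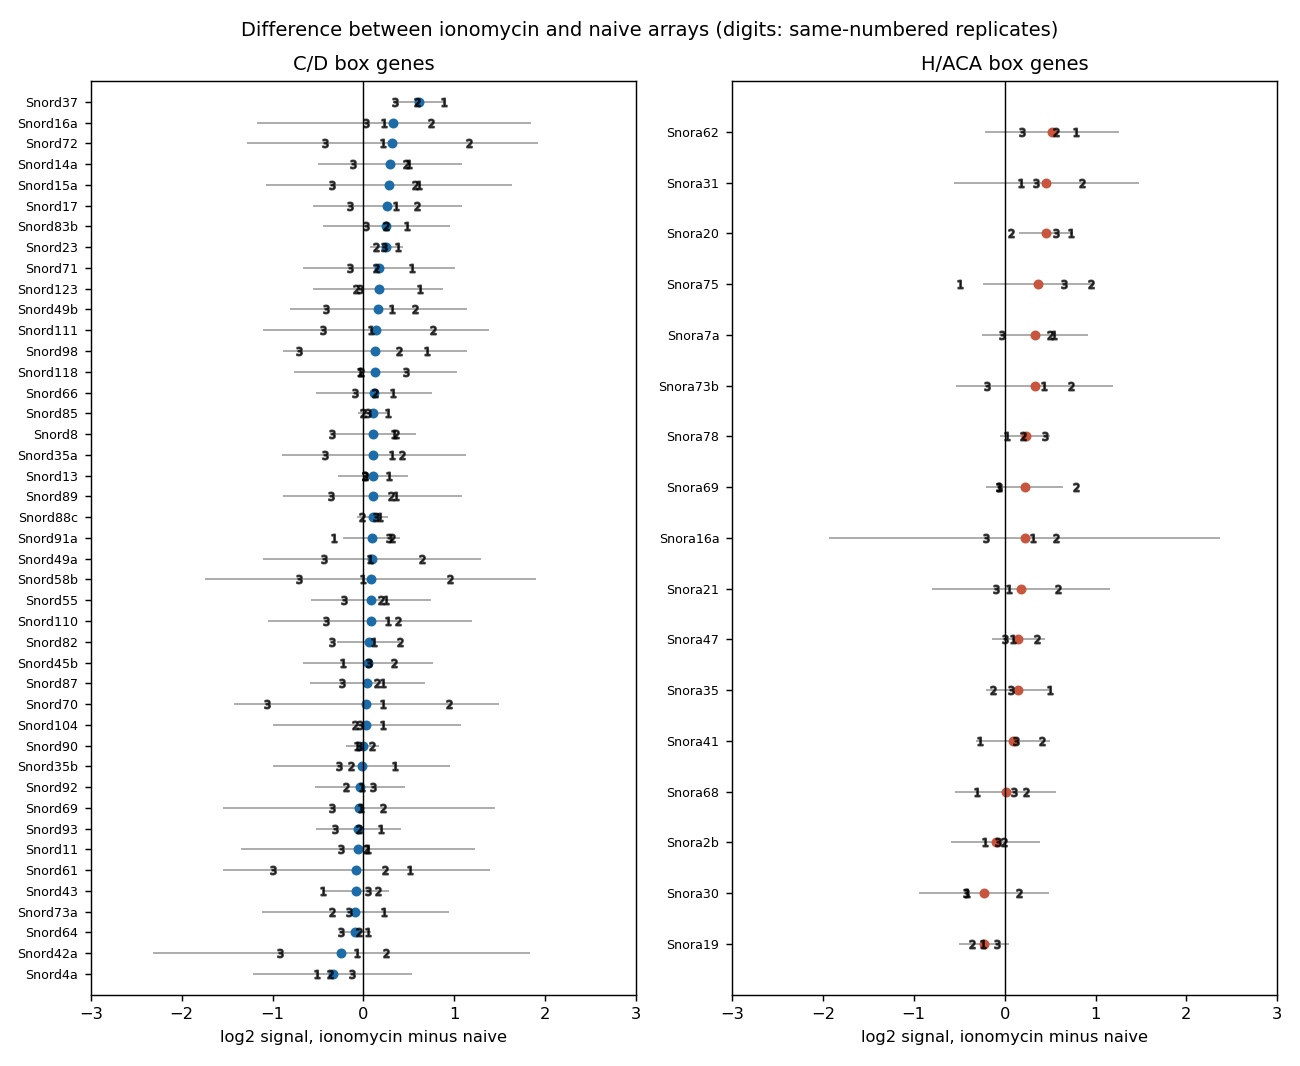
Log2 difference, ionomycin minus naive (horizontal axis), for each C/D and H/ACA gene (rows); points are means, bars 95% intervals without the block, and digits mark the same-numbered pairs. Bars are widest for Snora16a and Snord42a, and no gene passed the test.

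Snord37, a C/D snoRNA in an intron of Eef2 (translation elongation factor 2), came nearest to the threshold. Its log2 signal was 7.42, 7.11 and 6.99 on ionomycin arrays, against 6.53, 6.52 and 6.64 on naive arrays. The groups did not overlap, and every ionomycin array exceeded every naive array. The difference was 0.61 ± 0.12 (SE, n = 3 each), a 1.52-fold higher signal, with a limma adjusted p of 0.113 and 0.0998 with the block. Adjusted p fell below the threshold in 3 of the other settings tried: 0.0352 with a block of 2 levels (replicate 1 against replicates 2 and 3), 0.0107 with array weights and 0.0477 without both replicate 1 arrays. These settings also called far more of all genes than the 87 higher and 18 lower found with all arrays and no block. The counts were 677 higher and 744 lower with the block of 2 levels, and 2240 and 1654 with array weights. Without both replicate 1 arrays they were 423 and 429. The signal of Eef2 was 13.49, 13.48 and 13.50 on ionomycin arrays against 13.37, 13.60 and 13.48 on naive arrays, a difference of 0.01 ± 0.07 (SE) with a limma adjusted p of 0.96. The difference between the snoRNA and its host was not itself tested.

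Snord23, which lies in Nop53 (a ribosome biogenesis factor), was the other C/D gene without overlap. It had 9.40, 9.32 and 9.45 on ionomycin arrays, against 9.02, 9.17 and 9.23 on naive arrays. Its spread within groups was small, and it was among the 6 C/D genes with no positive replicate 1 offset. The difference was 0.25 ± 0.08 (SE, n = 3 each) with a limma adjusted p of 0.241, and Nop53 differed by 0.10 ± 0.15.

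The brightest C/D genes had similar signals in both groups, with a spread set by replicate 1. Snord110, in the gene of the C/D core protein Nop56, had 12.73, 11.65 and 11.19 on ionomycin arrays against 12.46, 11.27 and 11.60 on naive arrays. Snord55 had 12.39, 11.73 and 11.44 against 12.14, 11.53 and 11.65. Snord49b, in a long non-coding gene, had 12.24, 11.47 and 10.85 against 11.91, 10.90 and 11.26. In all 3 genes the groups overlapped and replicate 1 was highest in both groups. Their differences were 0.08 ± 0.46, 0.08 ± 0.27 and 0.16 ± 0.40 (SE), and none passed the test in limma.

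Of the C/D snoRNAs with roles beyond guiding methylation, none was called. Snord118 (U8, required for maturation of the large subunit ribosomal RNAs) had a mean below background, with 6.26, 5.32 and 5.57 on ionomycin arrays against 6.30, 5.35 and 5.11 on naive arrays. Snord13 (U13, a guide for acetylation of small subunit ribosomal RNA) had 8.25, 7.96 and 7.69 against 7.97, 7.94 and 7.66. Snord14a, of the U14 family that takes part in processing of small subunit ribosomal RNA, had 8.77, 8.0 and 7.63 against 8.27, 7.52 and 7.74. These groups overlapped, at differences of 0.13, 0.11 and 0.29. Other U14 genes lie in the heat shock gene Hspa8, but here they share rows with it and were not members. The row kept for Hspa8 lies on another chromosome than the gene, and it differed by 0.26 ± 0.08 (SE) with a limma adjusted p of 0.256, which was 0.0491 when the block had 2 levels and also passed with array weights. Gas5 and Snhg1, classic non-coding hosts, had no row naming them alone.

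Snord64 and Snora35 come from loci known mainly from neurons. Snord64, from the imprinted Snhg14 locus, lay below background, with 3.72, 3.70 and 3.59 on ionomycin arrays against 3.67, 3.76 and 3.84 on naive arrays. Snora35, in the serotonin receptor gene Htr2c, lay above background in its mean, with 6.63, 6.56 and 6.6 against 6.13, 6.69 and 6.52. Neither showed a difference that passed the test.

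In the H/ACA class the largest mean differences belonged to Snora62, Snora20, Snora31 and Snora75. Snora62, in the ribosomal protein gene Rpsa, had 9.18, 8.34 and 8.10 on ionomycin arrays against 8.39, 7.77 and 7.90 on naive arrays. The groups overlapped, but each pair was higher after ionomycin; the difference of 0.52 ± 0.30 (SE) had a limma adjusted p of 0.417, and 0.128 with the block. Snora20, in the chaperonin gene Tcp1, had 5.89, 5.51 and 5.77 against 5.16, 5.43 and 5.20, with no overlap and a difference of 0.46 ± 0.12 (SE, adjusted p 0.211 in limma), but all 6 values were below the background level. Snora31, in the translationally controlled tumour protein gene Tpt1, had 8.39, 7.61 and 7.44 against 8.21, 6.76 and 7.09.

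Snora75, in the nucleolin gene Ncl, went the opposite way in replicate 1. Its signal was 6.32, 7.09 and 6.91 on ionomycin arrays against 6.81, 6.14 and 6.26 on naive arrays. Pair 1 differed by -0.49, and pairs 2 and 3 by 0.95 and 0.65. Over all arrays the difference was 0.37 ± 0.25 (SE, limma adjusted p 0.475), and without both replicate 1 arrays 0.80, with a limma adjusted p of 0.0175. Snord82, also in Ncl, had 11.49, 11.51 and 11.09 on ionomycin arrays against 11.37, 11.12 and 11.44 on naive arrays. Ncl differed by -0.01 ± 0.18 (SE).

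The brightest H/ACA genes also overlapped between groups. Snora68 had 10.04, 9.81 and 9.65 on ionomycin arrays against 10.34, 9.57 and 9.55 on naive arrays. Snora73b, of the U17 family that acts in ribosomal RNA cleavage, had 10.52, 9.93 and 9.29 against 10.09, 9.20 and 9.48. Snora21 (in Rpl23) had 9.92, 9.25 and 8.77 against 9.87, 8.66 and 8.87. Differences were 0.01 ± 0.23, 0.33 ± 0.36 and 0.18 ± 0.40 (SE), none past the threshold in limma.

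The replicate 1 offset, the signal on array 1 minus the mean of arrays 2 and 3 of the same group, was examined after it had been seen, so it is a description without a test. Its median in the C/D class was 0.89 in ionomycin and 0.74 in naive cells, and in the H/ACA class 0.31 and 0.56. Over all genes it was -0.03 and -0.07, and over 40 cytosolic ribosomal protein genes 0.06 and -0.10. Both replicate 1 arrays lay above all other 4 arrays for 31 of 43 C/D genes (72.1%) and 8 of 17 H/ACA genes (47.1%), against 11.4% of all genes and 15.7% of those above background. Among 893 other genes that RefSeq types as snoRNA the share was 10.2%, and among 343 of them above background 20.1%. It was 2.3% among 565 microRNA genes. The other RefSeq snoRNA genes did not share the offset at the median. It was -0.11 in ionomycin and -0.10 in naive cells for the 893, and -0.10 in both groups for the 343. Small RNA genes outside the naming rule shared the offset in part: its median was 0.59 in ionomycin and 0.44 in naive cells for 21 genes of spliceosomal and other small RNAs, and 0.39 and 0.36 for 6 small Cajal body RNA genes. The 21 include 5 genes of the C/D snoRNA U3, some with identical values, and give 19 separate measurements. Both replicate 1 arrays lay above the other 4 for 28.6% of the spliceosomal and other small RNA genes (6 of the 19 separate measurements). The share was 33.3% of the small Cajal body RNA genes and 42.1% of the genes for snoRNA maturation and decay factors.

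The size of the offset varied strongly among members. Averaged over both groups it ran from -0.69 (Snord123) to 2.20 (Snord42a) in the C/D class and from -0.22 (Snora35) to 2.32 (Snora16a) in the H/ACA class, and it exceeded 1 log2 unit in 17 C/D and 3 H/ACA genes. Snord42a, in the ribosomal protein gene Rpl23a, had 11.26, 9.39 and 8.47 on ionomycin arrays against 11.33, 9.14 and 9.39 on naive arrays. Snora16a, in Snhg12, had 9.99, 7.92 and 7.29 against 9.68, 7.35 and 7.49. In both genes replicate 1 was the highest array of each group, and the gap exceeded the difference between the group means. Snord123, in Snhg18, ran the other way, with 6.98, 7.36 and 7.31 on ionomycin arrays against 6.36, 7.43 and 7.35 on naive arrays. The offsets of the 2 groups went together across members (Pearson r = 0.825, Spearman rho = 0.828, n = 60 genes, as for all genes at r = 0.711). Genes of 1 array share that array and are not independent replicates. Across the 60 genes, both classes pooled, the offset had r = -0.000878 with RefSeq length and r = 0.489 with signal level. Among the 50 members above background the Spearman rho with length was -0.198. It was -0.146 for the 36 of the C/D class and 0.218 for the 14 of the H/ACA class.

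**Figure D3:**
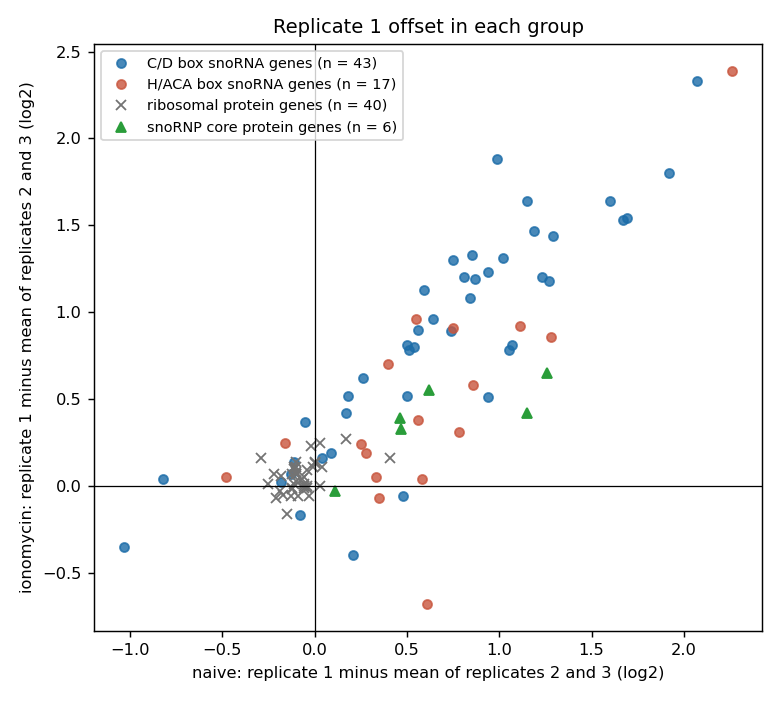
Replicate 1 minus the mean of replicates 2 and 3 in naive cells (horizontal axis, log2) and ionomycin cells (vertical axis, log2) for each C/D and H/ACA snoRNA gene, ribosomal protein gene and snoRNP core protein gene. snoRNA genes extend to offsets above 2 in both groups, while ribosomal protein genes cluster near 0.

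Replicates 2 and 3 also differed, in opposite directions in the 2 groups. Ionomycin array 2 lay above ionomycin array 3 for 36 of 43 C/D and 12 of 17 H/ACA genes, whereas naive array 3 lay above naive array 2 for 31 of 43 and 12 of 17. Both held for 28 C/D genes (65.1%) and 11 H/ACA genes (64.7%), against 26.5% of all genes. The share was 90.5% for the spliceosomal and other small RNA genes, U3 included and identical copies counted separately, and 66.7% for the small Cajal body RNA genes. Pair 3 gave a C/D median of the opposite sign to pairs 1 and 2.

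Host genes had smaller replicate 1 offsets than their snoRNAs in most pairs. There were 19 snoRNAs that lie in exactly 1 gene with a row of its own, both above background (17 distinct hosts). The median offset was 0.72 for the 19 snoRNAs and -0.02 for the 17 distinct hosts, and the snoRNA exceeded its host in 15 of 19. Snord16a, in the ribosomal protein gene Rpl4, had 10.90, 9.56 and 9.16 on ionomycin arrays against 10.67, 8.83 and 9.13 on naive arrays. Rpl4 had 13.34, 13.33 and 13.35 against 13.32, 13.37 and 13.35. Of the 17 distinct hosts 8 had a positive offset, and across the 19 pairs snoRNA and host offsets had a Pearson r of 0.383. The largest host offset of the 17, 0.96, was that of Nop58. Its signal was 10.61, 9.92 and 10.01 on ionomycin arrays against 11.05, 9.86 and 9.72 on naive arrays. The snoRNAs in Nop58, Snord70 and Snord11, had offsets of 1.33 and 1.37. Rbmx had an offset of 0.70 (Snord61 1.43) and Sf3b3 one of 0.47 (Snord111 1.23). For the treatment difference, the median was 0.15 for the 19 snoRNAs and 0.01 for their 17 distinct hosts. The sign was the same in 11 of 19 pairs (Pearson r = 0.502, Spearman rho = 0.47 across pairs, which share arrays). Of 34 enclosing genes with a row of their own, 0 were called in limma (before adjustment, at p under 0.05, 2 were higher and 1 lower, against 10.2% and 5.44% of all genes).

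**Figure D4:**
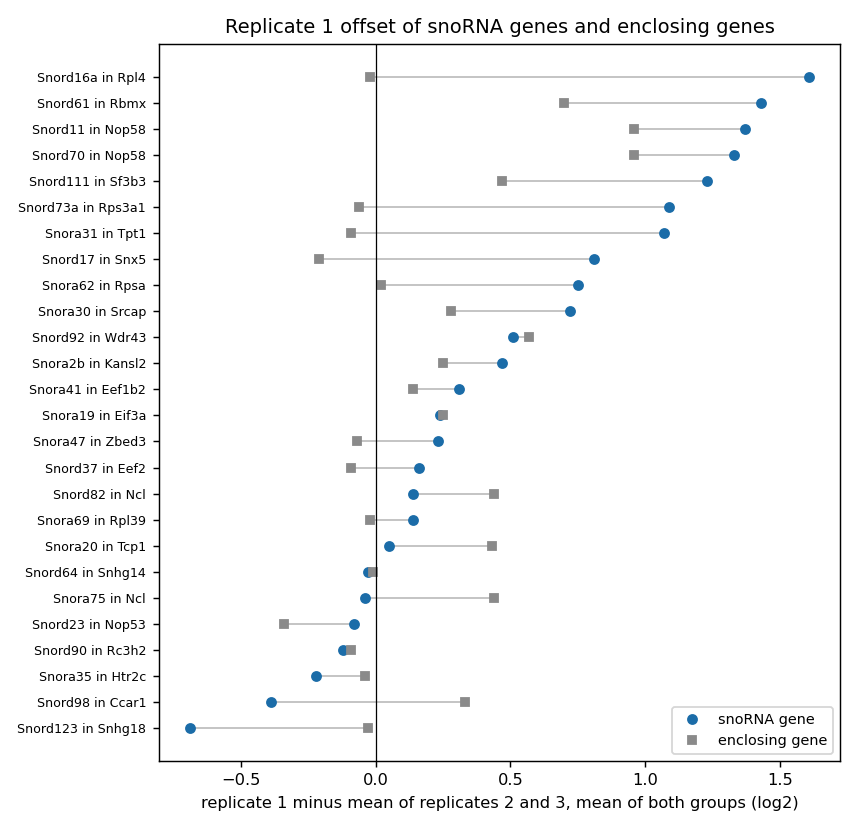
Replicate 1 minus the mean of replicates 2 and 3, averaged over both groups (horizontal axis, log2), for snoRNA genes (circles) and the gene that encloses each (squares), 1 row per pair. Over the pairs with both above background the median is 0.72 for the 19 snoRNA genes and -0.02 for the 17 distinct enclosing genes.

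Genes of the snoRNA particles were also not called. Fbl, the C/D methyltransferase, had 10.09, 9.51 and 9.58 on ionomycin arrays against 10.05, 9.48 and 9.37 on naive arrays, a difference of 0.10 ± 0.23 (SE). Dkc1, the H/ACA pseudouridine synthase, had 9.03, 8.53 and 8.68 against 9.74, 8.70 and 8.48, and Gar1 differed by 0.09 ± 0.06. Of the 4 C/D core proteins 2 had a row of their own, and of the 4 H/ACA core proteins all 4 did; 0 of 6 passed the test. Replicate 1 was highest in both groups for Fbl, Nop58, Dkc1, Nhp2 and Nop10, but not for Gar1, whose ionomycin arrays had 9.12, 9.13 and 9.17.

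Among 16 measured of 19 factors of snoRNA particle assembly and Cajal bodies, limma called 1 higher and 0 lower, against 0.289% and 0.0598% of all genes. Before adjustment (p under 0.05) 1 was higher and 4 lower, where 10.2% of all genes were higher and 5.44% lower. With the block 1 was higher and 6 lower, where 16% of all genes were higher and 9.41% lower. The median difference was -0.14, against 0.05 over all genes, and -0.30, -0.18 and -0.03 in pairs 1, 2 and 3. Ionomycin arrays lay wholly below naive arrays for 6 of the 16, against 7.31% of all genes. When the block had 2 levels, Naf1 (difference -0.39, limma adjusted p 0.0348) and Wrap53 (-0.32, 0.0438) passed as lower. That setting called 677 of all genes higher and 744 lower. The gene called without a block was Hsp90aa1, a stress-inducible HSP90 chaperone that acts with the R2TP complex in particle assembly and on many other clients. It had 12.96, 13.05 and 13.07 on ionomycin arrays against 12.34, 12.23 and 12.29 on naive arrays, a difference of 0.73 ± 0.06 (SE, n = 3 each) with a limma adjusted p of 0.0153, and 0.0387 with the block. Without naive replicate 2 or 3, or without ionomycin replicate 2 or 3, it no longer passed, at differences of 0.71 to 0.74. Of 19 measured of 20 factors of snoRNA maturation and decay (the RNA exosome, Parn, Xrn1 and others), 0 were called in limma. Before adjustment (p under 0.05) 0 of the 19 were higher and 1 lower, against 10.2% and 5.44% of all genes. With the block 0 were higher and 5 lower, against 16% and 9.41% of all genes. When the block had 2 levels, Parn passed as lower (difference -0.31, limma adjusted p 0.0432). The median difference of these factors was -0.19, and -0.38, -0.14 and -0.01 in pairs 1, 2 and 3. Mtrex, the helicase that feeds RNA to the nuclear exosome, had 9.77, 9.62 and 9.66 on ionomycin arrays against 10.27, 9.86 and 9.78 on naive arrays. Its groups did not overlap, and its difference of -0.28 ± 0.14 (SE) had a limma adjusted p of 0.349; without both replicate 1 arrays the difference was -0.18.

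Other non-coding RNA genes gave few calls. Of 10 non-coding host genes (median difference 0.14) 0 were called in limma, with 3 higher and 0 lower before adjustment (p under 0.05), against 10.2% and 5.44% of all genes; Snhg15 had 8.57, 8.58 and 8.69 on ionomycin arrays against 8.31, 8.18 and 8.39 on naive arrays (difference 0.32 ± 0.07, SE, adjusted p 0.165). Of 6 small Cajal body RNA genes (median difference 0.19), which guide modification of spliceosomal RNAs, 0 were called in limma. Before adjustment (p under 0.05) 0 were higher and 0 lower, against 10.2% and 5.44% of all genes. Of 565 microRNA genes, limma called 0 higher and 1 lower, where 0.289% of all genes were called higher and 0.0598% lower. With the block it called 1 higher and 1 lower, where 0.395% of all genes were called higher and 0.11% lower. The one called lower, Mir721, had 6.62, 6.69 and 6.57 on ionomycin arrays against 7.35, 7.25 and 7.32 on naive arrays, a difference of -0.68 with a limma adjusted p of 0.0187, and 0.0455 with the block. Leaving out any 1 array other than naive replicate 1 ended the call, at differences of -0.65 to -0.71.

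U3, the most abundant C/D snoRNA by textbook account, is named Rnu3 in mouse and so fell outside the naming rule; its genes were looked up after the data had been seen. Rnu3b1 had 11.29, 10.84 and 10.57 on ionomycin arrays against 10.44, 9.80 and 9.92 on naive arrays, with no overlap. The difference was 0.85 ± 0.24 (SE, n = 3 each), with a limma adjusted p of 0.217, or 0.054 under the replicate block and 0.0102 when that block had 2 levels. Across the 5 U3 genes the difference ran from 0.29 to 0.85. Rnu3b1, Rnu3b2 and Rnu3b3 had identical values and count as 1 measurement. Rnu3a differed by 0.60 ± 0.27 (SE), with an adjusted p of 0.333 in limma, and 0.0304 with the block of 2 levels. The 21 genes of spliceosomal and other small RNAs, U3 included, thus give 19 separate measurements, of which 0 were called in limma. The mean difference was above 0 for 19 of 19, against 64.6% of all genes, and within pair 3 for 13. Before adjustment (p under 0.05) 7 were higher and 0 lower, against 10.2% and 5.44% of all genes. Near-identical copies within such families may share signal, so their members are not independent.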

How the data were processed

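The deposited values of 6 arrays (65770 rows, 0 missing) were used as the authors left them, on a log2 scale read from their range of 3.01 to 14.6. The submitters' processing notes name oligo as the tool; its version, the normalization and the genome build were not given in the sources used here, and array number, not read depth, limits precision. Rows with 1 symbol in the platform annotation (30439, against 2146 with several and 33185 with none) named 30102 genes, the row with the highest 6-array mean being kept; 62 rows named the 60 snoRNA genes. Another 42 rows name a snoRNA together with other symbols and were not used. For 59 of 60 genes the row lies on the gene's RefSeq chromosome, the exception being Snord58b. Unused per-sample columns numbered 0.

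Ionomycin was compared with naive, two-sided, by lmFit and eBayes of limma 3.58.1 in R 4.3.3 (tables were read by data.table, version 1.17.8). No block was used and all 6 arrays entered, with Benjamini-Hochberg adjustment over all genes and a threshold of 0.05; fits were tested on simulated data. Replicate numbers come from the titles. Deviations from group means of same-numbered arrays 1, 2 and 3 correlated at 0.711, 0.476 and 0.469 over all genes. Crosswise, arrays 2 and 3 correlated at 0.524 and 0.481. Among the snoRNA genes the same-numbered values were 0.825, 0.38 and 0.484. Ionomycin array 3 correlated with naive array 2 at 0.787 there, and ionomycin array 2 with naive array 3 at 0.434. The numbers were taken as pairs and as the block of 3 levels, but these values do not show that arrays 2 and 3 pair by number. The alternatives were a block of 3 or 2 levels, quantile normalization, median centring, a background filter, eBayes trend and robust settings, array weights, other row choices and leaving out arrays. RefSeq rows used here give no strand for snoRNA genes, so enclosing genes were found by position alone and not by strand as planned.

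Members and gene lists were chosen with earlier results of these data known. Named genes were members past the threshold, the members of each class with the largest non-overlapping differences above background, the 3 brightest of each class, up to 4 called (or the 2 brightest) genes of each list, and Hspa8, Gas5 and Snhg1 with their members. Other genes named, among them Snord42a, Snora16a, Snora62, Snora75, Snord16a, Mcpt8, Prss34 and U3, were chosen after their values were seen.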

Additional observations from a re-analysis of the deposited data

How the results depend on the processing

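Of 43 C/D genes, 1 was called higher with array weights, 1 without both replicate 1 arrays and 1 with a block of 2 levels, Snord37 each time; of 17 H/ACA genes, 1 was called higher with array weights and 1 without both replicate 1 arrays, Snora75 in both, with an adjusted p of 0.0285 and 0.0175 in limma. Under the other alternatives, the replicate block with 3 levels included, 0 members were called higher, and 0 were called lower under any. Over all genes, 87 were called higher, against 2240 with array weights, 423 without both replicate 1 arrays and 677 with the block of 2 levels. Over all genes, 18 were called lower, against 33 with the replicate block, 32 with centring, 9 with trend and robust settings, 1654 with array weights, 429 without both replicate 1 arrays and 744 with the block of 2 levels; the cause was not tested. Leaving out 1 array at a time gave 1 to 95 genes higher and 0 to 55 lower, with the lowest count of higher calls without ionomycin replicate 2. It also gave a C/D median of -0.19 to 0.35, an H/ACA median of 0.07 to 0.34 and a C/D minus H/ACA difference of -0.28 to 0.01, against -0.12 over all arrays. The C/D genes above 0 numbered 31 of 43 in the deposited values, 29 once quantile-normalized, 26 once centred, 34 with array weights and 24 without both replicate 1 arrays; leaving out 1 array at a time gave 8 (without ionomycin replicate 1) to 39 (without naive replicate 1 and without ionomycin replicate 3). The median of all genes was 0.05, with 0.01 once quantile-normalized and -0.01 once centred. Hsp90aa1 lost its call without naive replicate 2 or 3 or without ionomycin replicate 2 or 3, at differences of 0.71 to 0.74. Of the 29 named genes, only Hsp90aa1 and Mir721 were called with all arrays and no block, and neither changed sign. Differences that were not called changed sign in 42 of 464 results, 1 result per named gene and alternative. Among these were Snord110, Snord55 and Snord49b without ionomycin replicate 1, at -0.36, -0.19 and -0.20.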
